A study of Homo sapiens with 6 samples.

Results

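The loci described here are 15552 H3K4me3 peaks of K562 cells that could be matched 1 to 1 between a library from cells carrying a hairpin against Staufen 2 (shStau2) and a library from cells carrying a control hairpin (shControl). They were taken from the deposited H3K4me3 peak lists on chromosomes 1 to 22 and X, which hold 27333 peaks under shStau2 and 22041 under shControl, out of 180871 peaks in the 4 ChIP lists analysed here. A pair was kept where a peak overlapped exactly 1 peak of the other list, by at least 1 base, in both directions. The pairs took in 56.9% of the shStau2 peaks and 70.56% of the shControl peaks. A further 32.04% of shStau2 peaks and 1.071% of shControl peaks overlapped nothing in the other list, and these are not part of the pairs.

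K562 is an established human line from a patient with chronic myeloid leukaemia in blast crisis, and it carries the BCR-ABL1 fusion. The series compared cells infected with the Staufen 2 hairpin with cells infected with the control hairpin by ChIP-seq. Each hairpin has 1 H3K4me3 library, 1 H3K4me2 library and 1 input library, so no difference between the hairpins has a replicate check and none was tested. No other treatment or genotype is given in the labels.

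H3K4me3 is a histone mark that sits around the start sites of active and poised genes. It is written by the SET1 and MLL complexes, which are drawn to CpG-rich promoters, and it is removed by the KDM5 enzymes. Staufen 2 is a double-stranded RNA-binding protein that acts on messenger RNA transport and decay. KDM1A (LSD1) removes methyl groups from H3K4me1 and H3K4me2 and, by its chemistry, not from H3K4me3.

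Pileup is the number of sequenced fragments stacked at a peak's summit, scaled by the peak caller, and fold enrichment divides it by the local background taken from the matched input. In the deposited lists every pileup was a whole number of summit tags times 1 factor per library (0.7569 for shStau2 and 0.6124 for shControl, to within 0.02 tags), so the tags themselves can be given. A scaled ratio below is the shStau2 to shControl ratio of a pair divided by the median ratio over all pairs, so that 1 is a locus that rose as the median pair did. A pair was counted as departing at a scaled ratio of 1.5 or more, or of 0.6667 or less. The 95% intervals given with single loci are exact binomial intervals of the tag ratio on the same scale, and they cover counting error only.

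The promoters below carried the departures in summit tags described further on, and are shown so that their base composition can be seen. Each is the 250 bases before the RefSeq start site on GRCh38.p14, 5′ to 3′ on the gene's strand, with CG dinucleotides in capitals. ADAM22 (chr7:87934001-87934250, plus strand), LCP2 (chr5:170297778-170298027, minus), IFIH1 (chr2:162318685-162318934, minus), IFIT1 (chr10:89392373-89392622, plus) and RPGR (chrX:38327233-38327482, minus) lay above the general rise. SCRT2 (chr20:675803-676052, minus) and MYO1F (chr19:8577443-8577692, minus) lay below it. The MYO1F window ends just upstream of both of its peaks, while the other windows overlap a peak of each list.
ADAM22: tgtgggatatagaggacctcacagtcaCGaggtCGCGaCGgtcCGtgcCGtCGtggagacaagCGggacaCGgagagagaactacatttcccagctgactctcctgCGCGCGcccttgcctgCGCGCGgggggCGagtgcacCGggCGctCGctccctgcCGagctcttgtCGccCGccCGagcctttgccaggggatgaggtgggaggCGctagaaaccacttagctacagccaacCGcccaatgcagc
LCP2: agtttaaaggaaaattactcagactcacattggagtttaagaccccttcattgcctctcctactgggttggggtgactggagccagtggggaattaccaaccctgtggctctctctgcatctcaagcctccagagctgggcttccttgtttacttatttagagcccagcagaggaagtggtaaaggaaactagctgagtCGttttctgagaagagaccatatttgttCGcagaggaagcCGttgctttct
IFIH1: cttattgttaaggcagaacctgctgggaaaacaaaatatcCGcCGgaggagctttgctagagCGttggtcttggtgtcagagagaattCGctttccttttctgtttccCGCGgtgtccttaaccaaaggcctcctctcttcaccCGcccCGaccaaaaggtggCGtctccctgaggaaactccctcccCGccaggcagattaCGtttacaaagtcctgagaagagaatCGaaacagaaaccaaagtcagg
IFIT1: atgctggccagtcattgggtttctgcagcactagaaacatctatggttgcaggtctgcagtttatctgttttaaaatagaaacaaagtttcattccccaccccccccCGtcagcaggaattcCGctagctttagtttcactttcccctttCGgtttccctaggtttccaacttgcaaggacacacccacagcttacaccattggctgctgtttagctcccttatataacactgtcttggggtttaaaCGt
RPGR: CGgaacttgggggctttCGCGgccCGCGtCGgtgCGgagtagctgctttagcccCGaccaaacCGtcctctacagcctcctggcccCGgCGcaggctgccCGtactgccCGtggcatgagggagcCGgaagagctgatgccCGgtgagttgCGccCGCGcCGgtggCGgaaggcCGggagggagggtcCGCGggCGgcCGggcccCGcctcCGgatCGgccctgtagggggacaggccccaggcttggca
SCRT2: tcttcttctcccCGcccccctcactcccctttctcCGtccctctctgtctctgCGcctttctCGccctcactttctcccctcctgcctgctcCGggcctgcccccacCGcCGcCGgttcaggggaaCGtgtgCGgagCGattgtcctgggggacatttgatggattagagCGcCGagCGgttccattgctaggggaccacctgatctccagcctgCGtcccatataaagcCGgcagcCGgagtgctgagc
MYO1F: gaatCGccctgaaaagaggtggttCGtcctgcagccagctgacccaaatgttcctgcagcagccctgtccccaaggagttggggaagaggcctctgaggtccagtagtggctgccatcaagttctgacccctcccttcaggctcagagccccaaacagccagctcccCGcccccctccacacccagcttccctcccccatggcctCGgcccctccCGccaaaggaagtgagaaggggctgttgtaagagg
These promoters range from CpG-rich to CpG-poor in both directions. RPGR holds 28 CG dinucleotides, ADAM22 25, SCRT2 17 and IFIH1 12, whereas MYO1F holds 5, IFIT1 4 and LCP2 3.

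The rise that the scaling removes took in nearly all pairs, though its size varied. Median fold enrichment over the pairs was 30.97 under shStau2 and 14.99 under shControl, with a median ratio of 1.948, and 14894 of 15552 pairs lay above a ratio of 1. Median pileup was 94.61 under shStau2 and 46.54 under shControl, with a median ratio of 1.96, and 15414 pairs lay above 1. Median length was 1391 bases under shStau2 and 1102.5 bases under shControl, with a median ratio of 1.233. The order of the loci was kept more closely in pileup (Spearman rho 0.9742 across pairs) and length (0.9542) than in fold enrichment (0.8797). These correlations are across loci of the same libraries and describe those libraries alone.

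**Figure D1:**
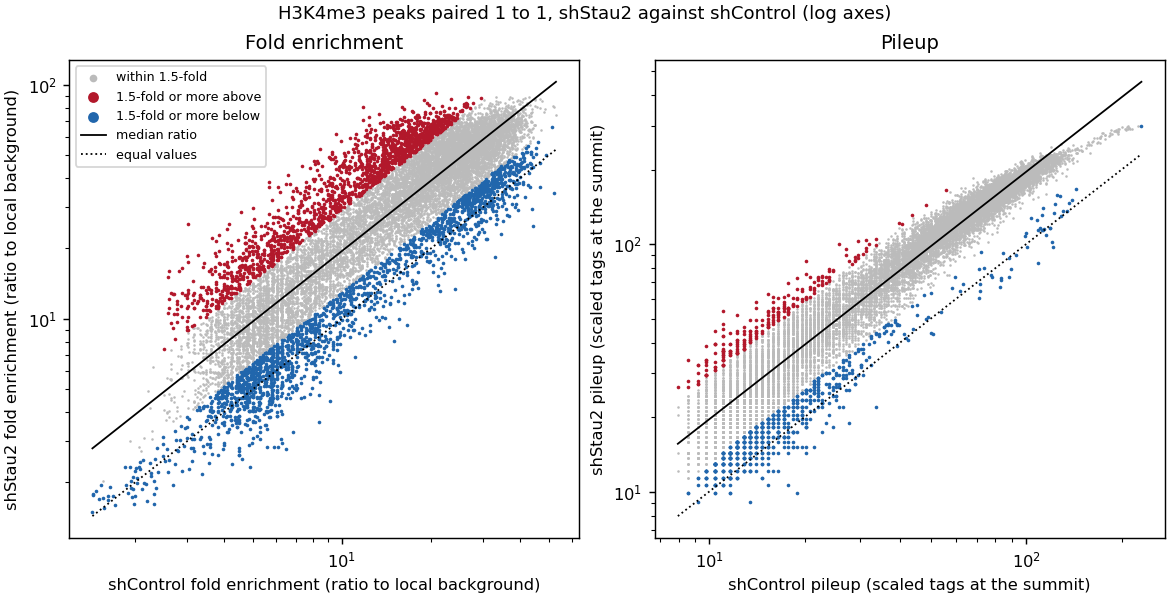
Fold enrichment (left panel) and pileup (right panel) of the 15552 paired H3K4me3 peaks, shStau2 on the y axis and shControl on the x axis, both log scaled, with the median ratio as a solid line, equal values as a dotted line and pairs past the 1.5-fold bounds in colour. Pileup lies in a tight band around the median ratio of 1.96, and fold enrichment scatters more widely around 1.948.

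In summit tags the rise was smaller than in pileup, with a median ratio of 1.586, because the shStau2 library is scaled by a larger factor. The median pair had 125 tags under shStau2 and 76 under shControl, although the shStau2 library is the smaller one, with 26320758 tags after duplicate removal under shStau2 and 30744332 under shControl. Of the 19 K562 marker genes checked, among them GATA1 and KLF1, 19 had a peak at their start under shStau2 and 17 under shControl. The 2 without a shControl peak were HBE1, an embryonic globin gene, with 18 summit tags under shStau2, and ALAS2, the first enzyme of erythroid haem synthesis, with 27. A peak in the shStau2 list alone was common, as 32.04% of that list overlapped no shControl peak. Of 12 markers of other cell types, 3 (APOA1, COL1A1 and SYP) had a peak in both lists.

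The targeted gene cannot be placed among the pairs. The STAU2 start lies under 1 shStau2 peak of 2707 bases, with 197 summit tags and a fold enrichment of 57.73, which covers 2 separate shControl peaks, one with 134 summit tags and one with 113. H3K4me3 at this promoter reports on chromatin and not on transcript level, so it does not check the knockdown. KDM1A had 267 summit tags under shStau2 and 177 under shControl, a scaled pileup ratio of 0.95 (0.784 to 1.157), which is within counting error of the median pair.

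Among the pairs, the size of the rise varied with how strong a locus was. Ranked by mean pileup into 10 groups, the weakest loci had a median of 25 tags under shStau2 and 19 under shControl and a scaled pileup ratio of 0.8404. The ratio was highest in the fifth group, at 1.048, and was 0.9495 in the strongest, where the medians were 259 tags under shStau2 and 170 under shControl. Length ran the other way. The scaled length ratio was 1.385 in the weakest group, where the median peak was 488 bases long under shStau2 and 268 under shControl, and 0.9322 in the strongest. Length ratios therefore declined with level, while height ratios were low at both ends and highest in the middle. A pair needs a called peak in both lists. The 8758 shStau2 peaks that overlapped nothing, with a median of 19 tags, are left out. The weakest group lies near that cut-off, and the part of the cut-off in its ratios was not tested.

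**Figure D2:**
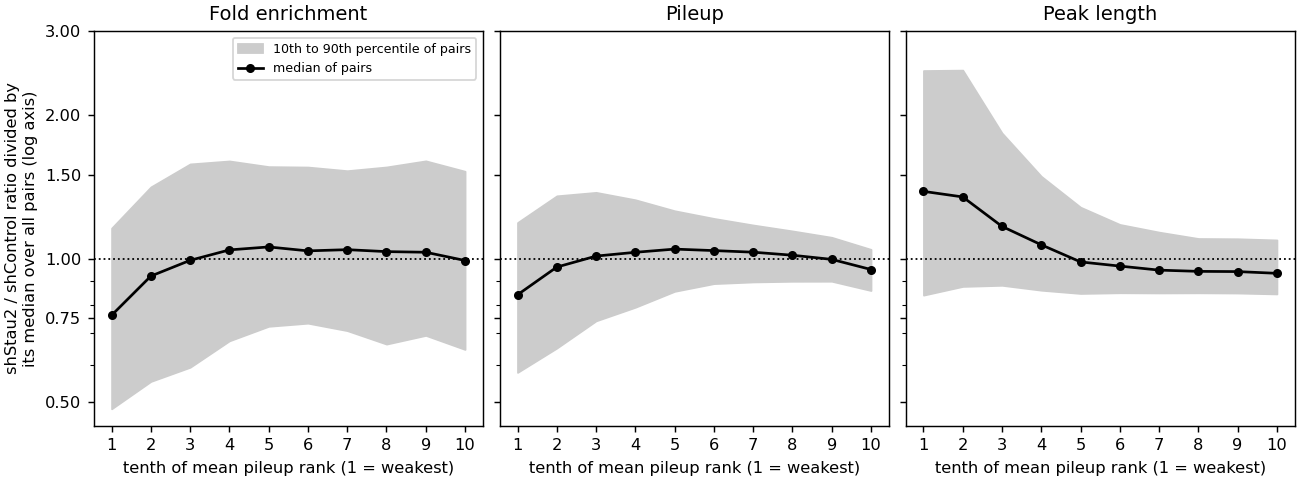
Median scaled ratio of fold enrichment, pileup and length in 10 groups of paired peaks ordered by mean pileup rank, with the spread between the 10th and 90th percentiles. Pileup runs from 0.8404 in the weakest group through 1.048 in the fifth to 0.9495 in the strongest, and length falls from 1.385 to 0.9322.

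The spread around these medians was close to what tag counts alone give. In the weakest group the robust SD of the log2 pileup ratio was 0.41, against 0.44 from counting error at those depths. In groups 2, 3 and 4, counted from the weakest, it was 0.40, 0.34 and 0.29, slightly above the 0.38, 0.32 and 0.27 from counting error. It lay below counting error in every other group, and in the strongest it was 0.11, against 0.14. In fold enrichment the robust SD over the 10 groups ranged from 0.36 to 0.52 and was 0.43 in the strongest. With the groups ordered by fold enrichment instead, it was 0.50 in the weakest and 0.22 in the strongest.

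Fold enrichment called many departing loci, and their local background, which enters fold enrichment by construction, differed between the hairpins. Above the bound lay 1640 pairs (10.5% of all pairs) and below it 2016 (13%). The last pair inside the upper bound had a scaled ratio of 1.5006 and the first outside 1.4997, and at the lower bound these were 0.66649 and 0.66671. In the pairs above the bound the median local background was 1.6 under shStau2 and 3.001 under shControl, and it was lower under shStau2 in 1591 of 1640. In the pairs below the bound it was 3 under shStau2 and 1.62 under shControl, and it was higher under shStau2 in 1878 of 2016. Summit height moved little in the first set, with a median scaled pileup ratio of 1.072, and 114 of the 1640 pairs were also past the pileup bound. In the second set it was 0.8274, and 561 of the 2016 were also past the bound.

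Ranks within the pairs gave the same picture. By 20 percentile points or more of fold enrichment rank, 1216 pairs moved up (7.82% of all pairs) and 1144 moved down (7.36%). Among the 100 largest moves up, of 40.14 to 57.95 points, the background was lower under shStau2 in 100 of 100, with medians of 1.52 under shStau2 and 5 under shControl. Their scaled pileup ratio was 1.066 at the median, and 2 were past the pileup bound. Among the 100 largest moves down, of 40.21 to 59.73 points, the background was higher under shStau2 in 100 of 100, with medians of 5 under shStau2 and 1.6 under shControl, with 0 past the pileup bound. Fold enrichment contains the background by its construction, and each hairpin has a single input library, so a difference in H3K4me3 and a difference in the input cannot be told apart in it.

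Single genes show the split between the 2 measures. VAPB, which encodes an endoplasmic reticulum membrane protein mutated in a form of motor neuron disease, made the largest move down, of 59.73 points. Its start had 169 summit tags under shStau2 and 127 under shControl, with a local background of 6 under shStau2 and 1.395 under shControl, and fold enrichment of 18.42 under shStau2 and 32.9 under shControl. SOD1, the cytosolic superoxide dismutase, had 271 tags under shStau2 and 180 under shControl, which is close to the median rise (scaled pileup ratio 0.95), while its fold enrichment was 29.44 under shStau2 and 43.79 under shControl. SMAP2 and TRPC4AP were among the largest moves up. SMAP2, a regulator of the small GTPase ARF, had 298 tags under shStau2 and 191 under shControl, with a scaled pileup ratio of 0.98 and a background of 2.2 under shStau2 and 9 under shControl. TRPC4AP, a substrate adaptor of a ubiquitin ligase, had 201 tags under shStau2 and 108 under shControl and a scaled pileup ratio of 1.17. BTG1, an anti-proliferative factor of mRNA decay chosen after its values were seen, went opposite ways in the 2 measures: 152 tags under shStau2 and 66 under shControl give a scaled pileup ratio of 1.45, while its scaled fold enrichment ratio was 0.43 over a background of 7 under shStau2 and 1.4 under shControl. Its start has a further, unpaired peak, and the fold enrichment ratio was 0.83, 0.82 and 0.83, within the bounds, with 50% reciprocal overlap, a −log10 q of 10 and merged peaks.

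**Figure D3:**
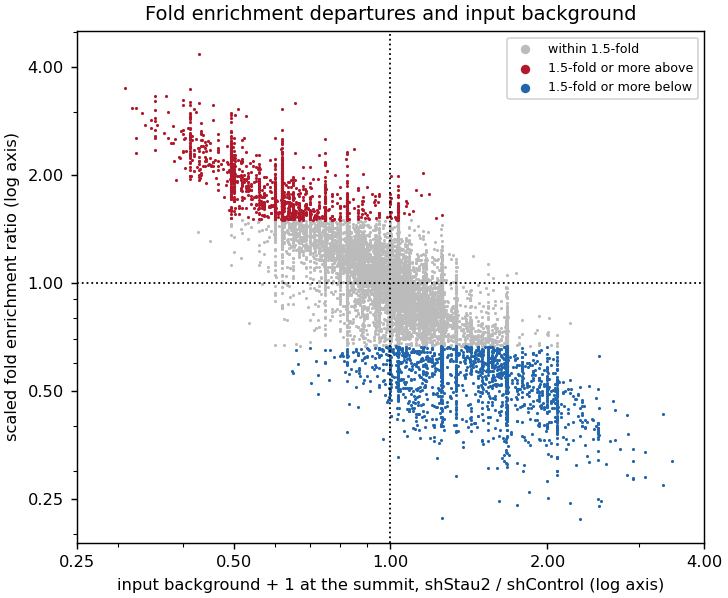
Scaled fold enrichment ratio of each paired peak (y axis, log scale) against the ratio of local input background plus 1 at the summit, shStau2 over shControl (x axis, log scale), with pairs past the 1.5-fold bounds in colour. Fold enrichment falls as the background ratio rises, with pairs above the bound at a median background of 1.6 under shStau2 and 3.001 under shControl.

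Some strongly marked genes departed in fold enrichment with summit height past 1.2-fold on the same side. They were picked by that rule, so the shared direction is set by the choice. XPO6, the exporter of actin and profilin, had 260 tags under shStau2 and 126 under shControl, a scaled pileup ratio of 1.30 (1.048 to 1.623) and a scaled fold enrichment ratio of 2.84. MAP3K9, a kinase of the JNK cascade, had 151 tags under shStau2 and 66 under shControl, with fold enrichment of 46.57 under shStau2 and 8.283 under shControl and a scaled pileup ratio of 1.44 (1.073 to 1.957). SPART, RLIG1, KCTD18, FAXC and NFATC1 were also among the highest by the same rule. Of these, the pileup intervals of SPART, RLIG1, FAXC and NFATC1 take in 1. At the other end, KLHL17, a Kelch-domain adaptor, had 290 tags under shStau2 and 227 under shControl and a scaled pileup ratio of 0.81 (0.675 to 0.963). Its scaled fold enrichment ratio was 0.40, but between 0.82 and 0.84, within the bounds, under 4 of the alternatives. ENTPD7, a nucleotidase, had 135 tags under shStau2 and 106 under shControl and a ratio of 0.80 (0.618 to 1.046), an interval that takes in 1. GDF11, TFAP4, UBR1, FOXRED2, PSMB6 and LZIC completed the 8 lowest, and their intervals also take in 1.

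Pileup, which does not divide by the local background, called far fewer pairs. Above the bound lay 235 pairs (1.51% of all pairs) and below it 713 (4.58%). The last pair inside the upper bound had a scaled ratio of 1.501 and the first outside 1.4999, and at the lower bound these were 0.66652 and 0.66743. Both sets were weak loci. The pairs above the bound had a median of 65 summit tags under shStau2 and 25 under shControl, and 2.128% of them ranked above the midpoint of all pairs in mean pileup. The pairs below had a median of 24 tags under shStau2 and 26 under shControl, and 6.732% ranked above the midpoint. The exact interval of the tag ratio lay wholly above 1 in 245 pairs (1.575%) and wholly below in 451 (2.9%). Exact 95% intervals leave out 5% or less by counting error, so these shares do not show whether the departures exceed it.

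The 2 sets sat in different places. Among pairs ranked below the midpoint, 44.35% of those above the pileup bound lay at the start or end of a protein-coding gene, 37.81% of those within the bounds and 21.5% of those below. Inside genes lay 14.78% of the pairs above the bound and 31.88% of those below, and between genes 36.09% of those above and 41.5% of those below. The promoter table held 75.53% of the genes below the bound, under the 80% required for a check of base composition, so none was made between the sets.

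By gene, taking the strongest pair at each start, 9878 protein-coding genes had a pair. In pileup, 100 genes lay above the bound (1.01%) and 94 below (0.952%). In fold enrichment, 1139 lay above (11.5%) and 871 below (8.82%). Among the 2307 genes whose pair ranked below the midpoint, 95 lay above the pileup bound (4.12%) and 92 below (3.99%). The genes described next were chosen after their values were seen, except where a list is named.

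Among genes with both peaks of a pair within 1 kb of the start, the highest scaled pileup ratio belonged to ADAM22, a catalytically inactive metalloprotease-family receptor for the synaptic protein LGI1. Its start had 113 tags under shStau2 and 33 under shControl, with fold enrichment of 28.09 under shStau2 and 8.157 under shControl, a length of 1116 bases under shStau2 and 432 under shControl, and a scaled ratio of 2.16 (1.454 to 3.286). The shStau2 peak, chr7:87933787-87934902 on hg38, reaches past the shControl peak, chr7:87934105-87934536, on both sides and takes in the gene's start. ZFHX3, a homeodomain factor, had 92 tags under shStau2 and 29 under shControl and a ratio of 2.00 (1.305 to 3.150). LCP2, the SLP-76 adaptor of T cell and platelet signalling, had 81 tags under shStau2 and 26 under shControl and a ratio of 1.97 (1.249 to 3.184). Its shStau2 peak spans chr5:170295877-170298045 and its shControl peak chr5:170296850-170297851. All of these were weak peaks under shControl that came closer to the median pair under shStau2. WNT2B, a Wnt ligand, had 100 tags under shStau2 and 33 under shControl and a ratio of 1.91 (1.278 to 2.924), but its start has a further, unpaired peak. SMAD1, a mediator of BMP signals, had 61 tags under shStau2 and 21 under shControl and a ratio of 1.83 (1.099 to 3.167). None of these 5 intervals reaches 1, but each was picked from 9878 genes, which such an interval does not allow for.

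Genes of innate immunity in the same set are given next. They were picked by name after their values were seen, so their number says nothing about the class. SP110, an interferon-induced nuclear body protein, had 73 tags under shStau2 and 26 under shControl and a ratio of 1.77 (1.118 to 2.886). IFIH1 (MDA5), a sensor of long double-stranded RNA, had 119 tags under shStau2 and 48 under shControl and a ratio of 1.56 (1.109 to 2.234). That pair also covers the start of the neighbouring gene GCA, so it cannot be given to one of them. IFIT1, which binds viral RNA, had 37 tags under shStau2 and 14 under shControl and a ratio of 1.67, with an interval of 0.880 to 3.337 that takes in 1. TLR3, another receptor of double-stranded RNA, had 39 tags under shStau2 and 16 under shControl and a ratio of 1.54 (0.839 to 2.946), and TLR2, a receptor of bacterial lipopeptides, had 49 tags under shStau2 and 19 under shControl and a ratio of 1.62 (0.940 to 2.925). APOL6 stood at 1.61 (1.048 to 2.519) and BIRC3, an NF-κB target, at 1.51 (1.009 to 2.313).

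The interferon response list had a median near that of all genes. Of its 30 genes, 20 had a pair, with a median scaled pileup ratio of 1.003, against 1.011 over all 9878 genes. IFIH1 and IFIT1 lay above the bound and 0 lay below. Both were among the 11 members ranked below the midpoint, a level at which 4.12% of all genes lay above. ISG15, a ubiquitin-like modifier, had 122 tags under shStau2 and 77 under shControl (ratio 1.00). STAT2, with 140 tags under shStau2 and 116 under shControl, had a ratio of 0.76. IFIT3, OAS2 and OASL had a peak in the shStau2 list alone. Of all shStau2 peaks, 32.04% overlapped no shControl peak, and the share over all genes was not counted. The core of the interferon response element, searched as GAAA, NN and GAAA in a row on both strands of the RefSeq promoter window, occurred in 3 of 81 promoters of genes above the bound (GCA, IFIH1 and IFIT1) and 1 of 71 below (CBX5), against 2.681% of all 15813 promoters. Among the 1813 promoters of paired genes ranked below the midpoint the share was 2.703%. GCA and IFIH1 hold the same pair, so they are not separate loci. The printed bases hold 3 matches for IFIH1, of which 2 overlap each other, and 2 for IFIT1, which do not overlap.

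Of the 7571 genes ranked above the midpoint, 5 lay above the pileup bound. RPGR, a ciliary protein mutated in X-linked retinal degeneration, had 173 tags under shStau2 and 71 under shControl and a ratio of 1.54 (1.159 to 2.055). SH3BGRL2 had 219 tags under shStau2 and 91 under shControl and a ratio of 1.52 (1.183 to 1.960). ANGEL1 had 190 tags under shStau2 and 79 under shControl (ratio 1.52), STARD10, a lipid transfer protein, had 161 under shStau2 and 65 under shControl (1.56), and ZFYVE26 had 159 under shStau2 and 66 under shControl (1.52). These 5 have narrower intervals than the weak loci, because their tag counts are higher.

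**Figure D4:**
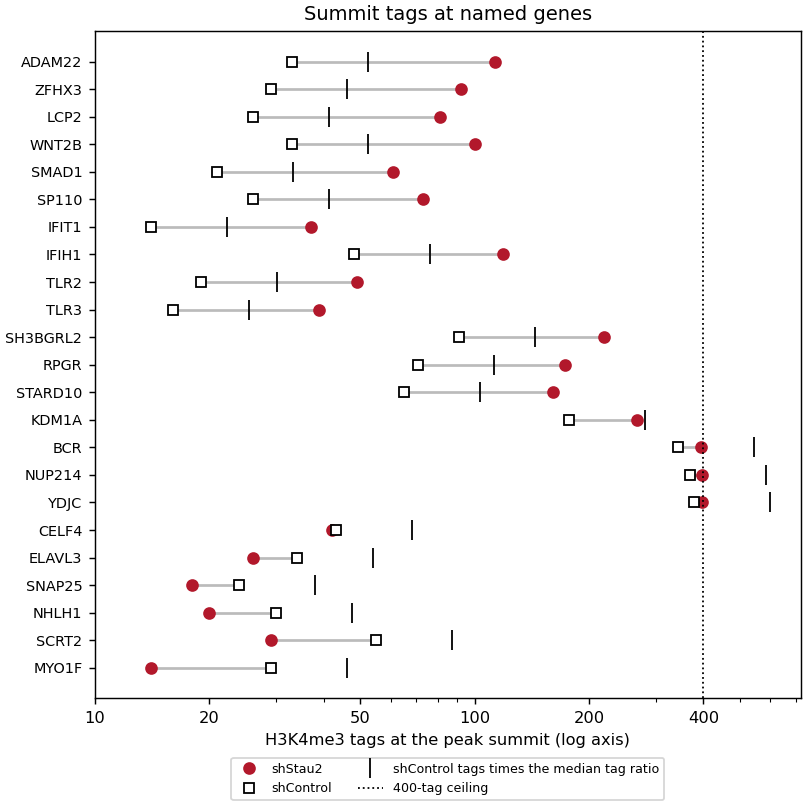
H3K4me3 tags at the summit (x axis, log scale) under shStau2 (filled circles) and shControl (open squares) for named genes, with a tick where the shControl count times the median tag ratio would lie and a dotted line at 400 tags. From ADAM22 to STARD10 the circle lies right of the tick, at KDM1A next to it, and from BCR to MYO1F left of it.

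Below the bound, the median pair had 24 tags under shStau2, the smaller library, and 26 under shControl. Of all 15552 pairs, 138 had a lower pileup under shStau2 outright. Most of the 713 pairs below the bound therefore still rose in pileup, by less than the median pair. The genes that follow are examples. SCRT2, a neuronal zinc-finger repressor, had 29 tags under shStau2 and 55 under shControl, a ratio of 0.33 (0.204 to 0.531). Its shStau2 peak, chr20:675317-676050, lies wholly within its shControl peak, chr20:674809-676500, and it had the lowest length ratio among these genes. MYO1F, a myosin of immune cells, had 14 tags under shStau2 and 29 under shControl and a ratio of 0.30 (0.149 to 0.595), the lowest among genes assigned by the same rule. NHLH1, a neuronal helix-loop-helix factor, had 20 tags under shStau2 and 30 under shControl and a ratio of 0.42 (0.226 to 0.765). CAMKV, a kinase-like protein of synapses, had 55 tags under shStau2 and 68 under shControl and a ratio of 0.51 (0.351 to 0.739). CBX5, which encodes the heterochromatin protein HP1α, had 19 tags under shStau2 and 33 under shControl at this pair and a ratio of 0.36 (0.195 to 0.657), but its start has a further, unpaired peak, and with merged peaks its scaled fold enrichment ratio was 0.84 in place of 0.53. Among genes ranked above the midpoint, 2 lay below the bound: DISP2, with 123 tags under shStau2 and 118 under shControl, and YDJC, which is taken up with chromosome 22 below.

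The neuronal list had the lowest median of the lists. Of the 25 genes of the neuronal list, 15 had no peak in either list and 9 had a pair, with a median scaled pileup ratio of 0.6755, against 1.011 over all genes. The interval of that median over its 9 genes, 0.4822 to 1.077, takes in the value over all genes. Of the 9, 8 ranked below the midpoint, where the median over all genes was 1.047, and 4 of these 8 lay below the bound with 0 above, beside 3.99% below and 4.12% above among all genes of that level. SNAP25, a synaptic fusion protein, had 18 tags under shStau2 and 24 under shControl and a ratio of 0.47 (0.242 to 0.909). ELAVL3, a neuronal RNA-binding protein, had 26 tags under shStau2 and 34 under shControl and a ratio of 0.48 (0.278 to 0.828). With peaks within 1 kb merged, its scaled fold enrichment ratio was 0.86 in place of 0.49, within the bounds. The unscaled pileup ratio was 0.9265 at SNAP25 and 0.9452 at ELAVL3. At the next genes, CELF4 and SYN1, it was 1.207 and 1.285, a rise smaller than the median ratio of 1.96. CELF4, another such protein, had 42 tags under shStau2 and 43 under shControl and a ratio of 0.62 (0.393 to 0.965), and SYN1, a synaptic vesicle protein, had 52 tags under shStau2 and 50 under shControl and a ratio of 0.66 (0.436 to 0.987). TUBB3 and NEFH did not follow, with ratios of 1.24 and 1.08. TUBB3 had 191 tags under shStau2 and 97 under shControl, and NEFH 82 under shStau2 and 48 under shControl. Outside the list, PTPRN, GABRD and MAP1A, all active in neurons or endocrine cells, had ratios of 0.50, 0.58 and 0.66, and the interval of GABRD takes in 1. The starts of PTPRN and MAP1A each have a further, unpaired peak.

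The letters TTCAGCACC, the left part of the neuronal silencer element, searched on both strands, occurred in 0 of 81 promoters above the bound and 1 of 71 below (SYN1), against 0.2972% of all promoters. Among the 1813 promoters of paired genes ranked below the midpoint the share was 0.6067%. The window is short, and a site elsewhere in these genes would not be seen.

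The other lists had median scaled pileup ratios between 0.8937 and 1.182. The LSD1 and CoREST complex had 14 paired genes at a median scaled pileup ratio of 1.03 with none past a bound, and they ranged from 0.95 for ZMYM3 to 1.12 for PHF21A. The H3K4 methyltransferases and partners stood at 0.9481 over 12 genes, from NCOA6 at 0.85 to DPY30, a core subunit, at 1.14. The H3K4 demethylases stood at 1.011 over 8 genes, with KDM5B lowest at 0.83. Erythroid genes stood at 0.9743 over 25 genes, and among the foetal globins HBG2 had 146 tags under shStau2 and 123 under shControl (ratio 0.75) and HBG1 had 141 under shStau2 and 103 under shControl (0.86). These 2 are near-identical copies, so reads between them are uncertain. GATA1 stood at 1.07 on 132 tags under shStau2 and 78 under shControl. Cytosolic ribosomal proteins stood at 1.01 over 56 genes, mitochondrial ribosomal proteins at 0.9916 over 68 and oxidative phosphorylation at 0.9915 over 58, with none past the pileup bound. Proteasome genes had a median of 1.231 in fold enrichment and 1.008 in pileup over 23 genes. Replication-dependent histone genes had the lowest of these, 0.8937 over 22 genes that share 15 pairs, with an interval of the median of 0.8235 to 0.9902, and 5 of the 22 lay above 1. Genes that share a pair hold the same value, so the 22 are not independent, and this interval does not stand for 22 separate loci. The remaining lists had medians between 0.9135 (B cell genes, 3 paired) and 1.182 (hepatocyte genes, 2 paired), and their members past the bounds were BIRC3 and GATA3 above and GP6, a platelet collagen receptor, below. The intervals of GATA3 (0.927 to 2.669) and GP6 (0.303 to 1.088) take in 1, and the start of GATA3 has a further, unpaired peak. The HOX clusters stood at 1.07 over 16 genes on 13 pairs, with HOXA3 below the bound on 22 tags in each list, and HOXD1, on 59 tags under shStau2 and 29 under shControl, highest at 1.28. The interval of HOXA3, 0.333 to 1.194, also takes in 1.

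Length departed at weak loci. Of all pairs, 1884 were longer than the median widening by the bound or more (12.1%) and 133 were shorter (0.855%). The longer pairs had median lengths of 771 bases under shStau2 and 297 under shControl, and a median scaled pileup ratio of 1.005. In height 111 of them lay above the pileup bound (5.892%) and 121 below (6.423%), beside 1.51% and 4.58% of all pairs. CD53, a tetraspanin of leukocytes, had a peak of 2203 bases under shStau2 and 298 under shControl on 37 tags under shStau2 and 21 under shControl. SIRPA, a phagocyte receptor of the CD47 signal, had 1301 bases under shStau2 and 209 under shControl on 29 tags under shStau2 and 16 under shControl. ZNF790 and GPR137B completed the 4 longest by ratio. The shorter pairs had median lengths of 314 bases under shStau2 and 513 under shControl, and 88 of the 133 also lay below the pileup bound. After SCRT2, the shortest by ratio were GSC2 and LHX3, both homeodomain factors, and OPRD1, the delta opioid receptor. GSC2 had a peak of 205 bases under shStau2 and 391 under shControl, LHX3 of 299 under shStau2 and 480 under shControl, and OPRD1 of 200 under shStau2 and 285 under shControl. All rest on few tags, such as 27 in each list at GSC2.

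A separate group of departing loci came from sequence present in many copies. These stretches were chosen after their values were seen. In the 45S ribosomal RNA genes on the short arm of chromosome 21, 11 pairs had a median of 97 tags under shStau2 and 127 under shControl, and their scaled pileup ratio was 0.458 at the median, from 0.4247 to 0.5707, so that all 11 lay below the bound. The local background there was 35.6 under shStau2 and 38 under shControl, far above the median of 1.999 under shStau2 and 2 under shControl over all pairs. The surrounding stretch, chr21:8204717-8470763, held 47 pairs, of which 38 lay below the bound, and its unscaled pileup ratio was 1.044. Chromosome 21 therefore had the lowest scaled pileup ratio of any chromosome, 0.9462 over 249 pairs, and 0.9848 over the 202 pairs outside the stretch. Median fold enrichment in the stretch was only 1.983 under shStau2 and 2.004 under shControl. Over all pairs it was 30.97 under shStau2 and 14.99 under shControl. Summits there thus stood little above the local background, and the part of that background in the low pileup ratios was not tested.

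Other repeated genes behaved alike in part. At TTC34 (chr1:2642235-2759782), 23 pairs had a median of 38 tags under shStau2 and 44 under shControl and a scaled ratio of 0.5254, with 22 below the bound. In the overlapping stretch chr1:2611149-2749251, median fold enrichment over 20 pairs was also low, at 3.009 under shStau2 and 3.527 under shControl. At DUX4L pseudogenes of the D4Z4 repeat, whose intact copy encodes a factor of early embryos, 21 pairs had 28 tags under shStau2 and 33 under shControl and a ratio of 0.5373, with 16 below. At the SNAR-A small RNA genes of chromosome 19, 8 pairs had 34 tags under shStau2 and 33 under shControl and a ratio of 0.6304, with 6 below. The REXO1L family added 3 pairs at 0.8213, with 1 below. These families and the chromosome 21 stretch together held 83 of the 713 pairs below the bound (11.64%). In contrast, tRNA genes stood at 0.9429 over 115 pairs and zinc-finger (ZNF) genes at 1.047 over 441. DXZ4, a tandem repeat of the X chromosome that gives rise to DANT1 and DANT2, lay on the other side: 13 pairs had a median of 50 tags under shStau2 and 23 under shControl and a ratio of 1.261, and 12 of the 13 lay above 1. Reads from such copies map to more than one place, and how such reads were placed is not stated by the labels or headers.

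**Figure D5:**
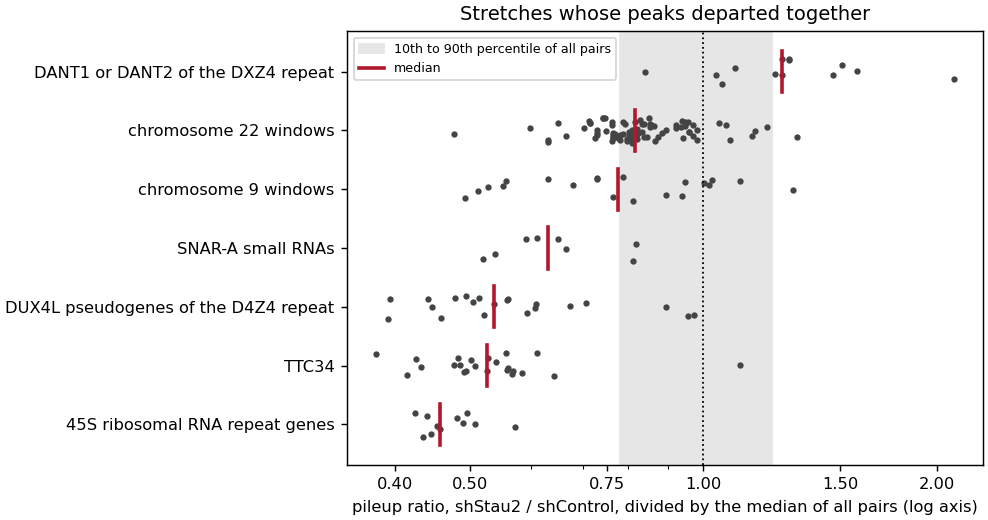
Scaled pileup ratio (x axis, log scale) of every pair in the multicopy families and in the windows of high background (rows), with the median of each set in red and the 10th to 90th percentile range of all pairs shaded. The 45S rRNA, TTC34 and DUX4L pairs lie mostly left of the shaded range, the DXZ4 pairs mostly above 1, and the chromosome 22 windows at a median of 0.8169.

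Regions of high input background lay below the median rise, among them the BCR and ABL1 neighbourhoods, which K562 carries in extra copies. Of 1528 windows of 500 kb, 17 had a median background of 4 or more in both lists, and the median scaled pileup ratio lay under 1 in all 17. Of these windows 8 lay on chromosome 22 and 2 on chromosome 9. Outside these and the repeat families above, windows on chromosomes 4, 13, 17 and 21 stood at 0.8628, 0.9101, 0.8662 and 0.807. In the chromosome 22 windows, 83 pairs had a median of 295 tags under shStau2 and 202 under shControl and a scaled pileup ratio of 0.8169, with 76 of 83 under 1. The rest of chromosome 22 stood at 1.012 over 311 pairs. BCR had 395 tags under shStau2 and 342 under shControl and a ratio of 0.73 (0.628 to 0.844), CRKL, an adaptor of BCR-ABL1 signalling, had 386 under shStau2 and 336 under shControl and a ratio of 0.72, and YDJC had 397 under shStau2 and 377 under shControl and a ratio of 0.66. On chromosome 9, NUP214 had 397 tags under shStau2 and 369 under shControl and a ratio of 0.68, and ABL1 had 114 under shStau2 and 94 under shControl and a ratio of 0.76.

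These loci stand next to a ceiling of the method. With 1 tag kept per position and strand and fragments extended to 200 bases, no summit can exceed 400 tags, and the highest in the pairs were 397 under shStau2 and 377 under shControl. In the scatter of pileup the strongest loci lie below the median line, and the part of the ceiling in this was not tested. Of the 26 pairs with 370 or more shStau2 tags, 18 lay on chromosome 22 and 2 on chromosome 9, and their scaled ratio was 0.7451. The 34 chromosome 22 pairs with under 200 shStau2 tags stood at 0.8598, and all pairs with under 200 shStau2 tags at 1.005. EEF1A1, a highly expressed elongation factor outside these windows, had 382 tags under shStau2 and 303 under shControl and a ratio of 0.79. The X chromosome had the highest scaled pileup ratio, 1.065 (1.051 to 1.083 over 520 pairs), and chromosome 13 followed at 1.053.

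H3K4me2, measured in other libraries of the same cells and not used to pick the pairs, gave a further reading. In the region that both H3K4me2 lists cover, 9119 of 11438 H3K4me3 pairs overlapped a paired H3K4me2 peak. Where H3K4me3 lay above the pileup bound, the scaled H3K4me2 pileup ratio was 1.176 (1.142 to 1.225, interval of the median over 142 loci), and 88.03% of loci lay above 1. Within the bounds it was 1.048 with 63.62% above 1, and below them 1.013 (0.9903 to 1.043) with 53.14% above 1. The pairs above the bound were nearly all weak loci. Among pairs ranked below the midpoint, the H3K4me2 ratio was 1.179 above the bound, 1.081 within and 1.023 below. The shares above 1 were 87.77%, 68.86% and 54.77%. SMAD1 stood at 1.95 in H3K4me2 and NHLH1 at 0.56, while SCRT2 stood at 1.07 despite its H3K4me3 ratio of 0.33. Sorted by H3K4me3 fold enrichment instead, H3K4me2 pileup hardly differed, at 1.061 above, 1.048 within and 1.04 below. H3K4me2 fold enrichment did differ, at 1.229 above and 0.9134 below, but it divides by the same 2 input libraries. Across the 9119 loci, the 2 marks' pileup ratios had a Spearman rho of 0.09556, given as a description.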

How the data were processed

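ChIP-seq of H3K4me3 and H3K4me2 in K562 cells, each hairpin having a single library of either mark and its own input, was analysed from the peak lists. The submitters' processing notes name Bowtie2, MACS2 and the build hg38, and per the file headers the peaks were called with MACS2 2.1.2. Per the file headers each library was called alone against its own hairpin's input, with fragments extended to 200 bases, 1 tag kept per position and a q-value threshold of 0.05. The deposited lists give a pileup at the summit (a signal or coverage value), a fold enrichment (a ratio to the local background), a −log10 p-value, a −log10 q-value and a length in bases, all computed by the authors' peak caller. After duplicate removal the libraries held 26320758 tags under shStau2 and 30744332 under shControl, and the inputs 19921064 under shStau2 and 18826946 under shControl. Neither the labels nor the headers say how reads with several equal matches were handled.

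From these values, 1-to-1 pairs, median-scaled ratios, ranks among the pairs and exact binomial intervals of the summit tags were computed with scipy 1.17.1, pandas 2.3.3 and numpy 2.4.6 under Python 3.11.15, and drawn with matplotlib 3.10.9. Peaks on chromosome Y and other contigs (244 under shStau2 and 239 under shControl) were left out. The local background was recovered as the pileup plus 1 divided by the fold enrichment, minus 1. The pairing was tested on simulated peaks. With 1 library a side no test was made, and the intervals cover counting error only. Tags without molecular identifiers are not fully independent molecules.

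A pair was given to a gene where both peaks overlapped the 1 kb on each side of the listed start, or of either gene end for the 4162 of 19974 protein-coding genes without a listed start, from RefSeq tables of GRCh38.p14. A gene took its strongest pair. Genes were named by a rule: STAU2 and KDM1A, the 8 largest moves in rank each way, the 8 highest and lowest scaled fold enrichment ratios among pairs above the midpoint that were past 1.2-fold in pileup the same way, the 4 highest and lowest length ratios, and up to 3 members past the bounds, or the extremes, of each of 29 gene lists. Others are said to be chosen after their values were seen, and some genes that the rule names are not reported here. The pairs, lists and bounds were chosen with earlier results of these data known. The H3K4me2 lists held here cover 16 whole chromosomes and chromosome 4 up to base 185623562, and only loci in that region were compared. Alternatives covered the overlap, the peak threshold, merging, contigs, scaling, measure, bound, rank and gene window, and 6 more were added after seeing the data.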

Additional observations from a re-analysis of the deposited data

How the results depend on the processing

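The counts of departing pairs moved with the measure, the bound and the weakest pairs. Pileup in place of fold enrichment gave 235 above and 713 below the 1.5-fold bound, and 27 up and 98 down by 20 rank points. Pileup, with settings added after seeing the data, gave 303 and 478 with a running median of 50 bins, 12 and 122 at a 2-fold bound, and 234 and 675 without the rRNA stretch of chromosome 21. Fold enrichment at a 2-fold bound gave 388 above and 566 below, and 1105 below without the 25% of pairs of lowest rank. Ranks in each whole list gave 3977 up and 345 down, since the lists differ in length, and a 10-point bound gave 3173 and 3093. Longer pairs numbered 665 with 50% reciprocal overlap, 856 at a −log10 q of 10 and 490 without those 25%. The reciprocal overlap by itself leaves out pairs whose lengths differ widely. Shorter pairs numbered 24 at that q, 50 at a fold enrichment of 5 and 10 without those 25%. The median fold enrichment ratio was 1.964 with 50% reciprocal overlap, 1.99 at a −log10 q of 10, 1.961 at a fold enrichment of 5, 1.972 with merged peaks and 2.017 without those 25%. The median pileup ratio was 1.979, 1.973, 1.973 and 1.988 under the last 4 of these, and the median length ratio 1.211, 1.225, 1.223 and 1.192. H3K4me2 at pairs above and below the fold enrichment bound stood at 1.061 and 1.04 in pileup and at 1.229 and 0.9134 in its own fold enrichment, and at pairs chosen on pileup at 1.176 and 1.013, or 1.179 and 1.023 within the weaker pairs. Among single genes, 3 scaled fold enrichment ratios changed side of 1: BTG1 at 1.45 and SMAP2 at 0.98 in pileup, and HOXD1 at 0.81 with 50% reciprocal overlap, where another pair stands for it. Of the other alternative values of single genes, lists and the rank correlation of fold enrichment, 411 stayed close to the reported ones and 58 moved. That correlation moved to 0.775 at a −log10 q of 10 and to 0.7589 without the 25% of pairs of lowest rank. No paired analysis was possible because each hairpin has 1 library per mark. Weak loci are limited by depth, since 25 tags under shStau2 and 19 under shControl at the median of the weakest group leave a scaled ratio of 1.5 within counting error.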
